A study of Mus musculus with 2 samples.

Results

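The 10 genes studied here encode secreted trophic and growth factors that microglia can make, and they were measured in sorted microglia of sham-operated mice. The members are Igf1, Pdgfa, Pdgfb, Vegfa, Vegfb, Bdnf, Hbegf, Osm, Lif and Bmp2, chosen by name, and all 10 were found by Ensembl identifier among the 53801 genes of the count files. The 2 libraries analysed belong to 1 group, and each came from 1 mouse. The mice were males of 8 to 10 weeks on a C57BL/6 background with the genotype Cx3cr1(CreER/wt), in which a tamoxifen-inducible Cre recombinase sits in the Cx3cr1 gene and no floxed allele is named. Cre driven from this gene is also active in other macrophages that express Cx3cr1. Both had received tamoxifen at 75 mg/kg daily for 4 days, and sham surgery followed 14 days after the first injection. Cells of the left hemisphere were sorted 3 days after surgery as CD11c–Ly6G–CD11b+CD45low. The titles of the samples name sham surgery while their treatment is labelled as none, and the study's methods give an older age range and both sexes. The libraries of the stroke arm were not analysed here, so levels and their spread between 2 mice are given, with no test between conditions.

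Trophic factors are secreted proteins that bind receptors on neighbouring cells and sustain their survival, growth or differentiation. Microglia are known as a source of insulin-like growth factor 1 for neurons and oligodendrocyte lineage cells and of platelet-derived growth factor for vessels. Oncostatin M and leukemia inhibitory factor belong to the interleukin-6 family, which signals through the shared receptor subunit gp130. Several of these genes, among them Osm, Lif and Hbegf, are also known to be switched on quickly when cells are stimulated.

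RefSeq promoters (GRCm38.p6, 250 bases before to 50 after a start, both strands searched) were at hand for 6 of the 10 members. The promoters of 3 are shown for the contrast between genes that they stand before: Vegfa and Vegfb, a pair of relatives that were both lower in library 2, and Lif, which had almost no counts beside its abundant neighbour Osm. Capitals mark GGGCGG, the GC box, and TGACTCA, the AP-1 element, on either strand. The Vegfa window is chr17:46032328-46032627 (minus strand), the Vegfb window chr19:6987602-6987901 (minus strand) and the Lif window chr11:4257318-4257617 (plus strand).
Vegfa: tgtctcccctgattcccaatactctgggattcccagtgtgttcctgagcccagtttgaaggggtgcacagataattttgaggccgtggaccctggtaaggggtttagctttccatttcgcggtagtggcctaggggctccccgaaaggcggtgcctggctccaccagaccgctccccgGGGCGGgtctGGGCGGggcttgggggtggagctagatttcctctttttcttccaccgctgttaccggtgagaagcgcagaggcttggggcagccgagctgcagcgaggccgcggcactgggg
Vegfb: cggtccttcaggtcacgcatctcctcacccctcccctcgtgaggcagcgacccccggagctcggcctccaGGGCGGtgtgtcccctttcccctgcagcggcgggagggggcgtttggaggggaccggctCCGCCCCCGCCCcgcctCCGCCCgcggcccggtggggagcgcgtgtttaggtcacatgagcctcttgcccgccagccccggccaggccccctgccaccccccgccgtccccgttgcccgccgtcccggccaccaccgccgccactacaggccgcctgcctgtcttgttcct
Lif: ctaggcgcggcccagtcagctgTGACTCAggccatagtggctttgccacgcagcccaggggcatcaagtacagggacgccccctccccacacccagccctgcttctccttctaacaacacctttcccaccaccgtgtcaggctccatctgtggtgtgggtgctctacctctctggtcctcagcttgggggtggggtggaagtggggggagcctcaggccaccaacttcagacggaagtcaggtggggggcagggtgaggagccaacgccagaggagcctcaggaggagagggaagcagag
The GC box occurred at 2 places in this Vegfa window and at 4 in the Vegfb window, and the Lif window held none. It was present in 35.7% of all 32851 promoters of this length. The Vegfb window held 75.3% G and C, more than 96.4% of all promoters. The Lif window held 1 AP-1 element, which 5.20% of all promoters hold. These matches are descriptions of the letters, and the counts do not show which factor bound there.

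Library 1 held 23381026 counts on genes and library 2 held 41142609, so at an equal level library 2 gives the smaller counting error. A gene with fewer counts in library 2, such as Bmp2 with 226 and 51, has the larger relative error there. Levels are given as CPM, a count scaled to a library total of 1000000. A count of 0 allows up to 3 counts, which is 0.128 CPM at the depth of library 1 and 0.0729 CPM at that of library 2. Since reads copied by PCR are not separate molecules, the intervals and these limits describe counting error alone. The 10 microglia markers, among them Tmem119 and P2ry12, took 5.12% and 4.72% of the counts, whereas the immature and mature neutrophil lists took 0.219% and 0.347% in library 1 and 3.55% and 3.06% in library 2. The libraries stood apart in markers of other cells. Immature neutrophil genes summed to 2189.6 CPM in library 1 and 35459 CPM in library 2, mature neutrophil genes to 3474 and 30648 CPM, basophil or mast cell genes to 0.257 and 172 CPM, and choroid plexus genes to 44.6 and 584 CPM. No marker of the neutrophil lists was at 0, and Ly6g, whose protein the gate was set against, had 15.4 and 211 CPM. Of the basophil or mast cell markers, 5 of 7 were at 0 in library 1, as were 32655 of all 53801 genes. In library 2, 0 of the 7 and 31481 of all genes were at 0. Monocyte genes summed to 478 and 517 CPM, within which Ly6c2 had 90.3 and 302 CPM and F13a1 had 225 and 64.7 CPM. Border macrophage genes summed to 484 and 273 CPM. Of the astrocyte sum of 226 and 177 CPM, Slc1a3 alone gave 219 and 169 CPM, while Aqp4 had 0.385 and 0.948 CPM. Oligodendrocyte genes summed to 50.5 and 72.4 CPM, and neuron genes to 3.34 and 5.86 CPM. The T or NK cell genes had 0.0428 and 0.997 CPM, the B cell genes 569.9 and 778 CPM, of which Ighm gave 517 and 720.2 CPM, and the 12 early-response genes 17905 and 21366 CPM. In these bulk samples a change in the number of cells of a type and a change in RNA per cell cannot be told apart.

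Per length, Osm was the most abundant member in both libraries, and Lif, the gene next to it, was at the limit of detection. Osm, which encodes oncostatin M (chromosome 11 of GRCm38, 4236420 to 4241026), had 2416 and 11961 counts in libraries 1 and 2, or 103 and 291 CPM, with a mean of 197 ± 133 CPM (SD, n = 2). Library 2 was 2.81-fold higher (95% interval for counting error 2.69 to 2.94). A gene was called counted where each library had 10 counts or more, and of the 13445 genes counted 96.7% had a lower ratio of library 2 to library 1. Lif (chromosome 11, 4257557 to 4272514) had 1 count in library 1 and 0 counts in library 2. Its single count corresponds to 0.0428 CPM (exact interval 0.00108 to 0.238), so Lif was not detectable beyond the limit that a count of 0 allows. Both genes lie on the plus strand and only 16.5 kb separate the end of Osm from the start of Lif.

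Upstream of Osm, Castor1, Tbc1d10a and Sf3a1 had counts in both libraries, whereas no counts were found for the noncoding genes Gm11959 and Gm11958 downstream of Lif. On the per-length scale (TPM, counts divided by exon length and scaled to the library), Osm had 129 in library 1 and 293 in library 2, Tbc1d10a had 106 and 72.1, and Castor1 had 40.2 and 27.1. By CPM and by TPM, Osm was the only protein-coding gene within 100 kb on either side with a higher level in library 2. Tbc1d10a had 102 and 86.0 CPM and Castor1 had 22.2 and 18.6 CPM. Differences this small can turn in sign under another scaling of the libraries, and the neighbours were not examined under one.

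**Figure D1:**
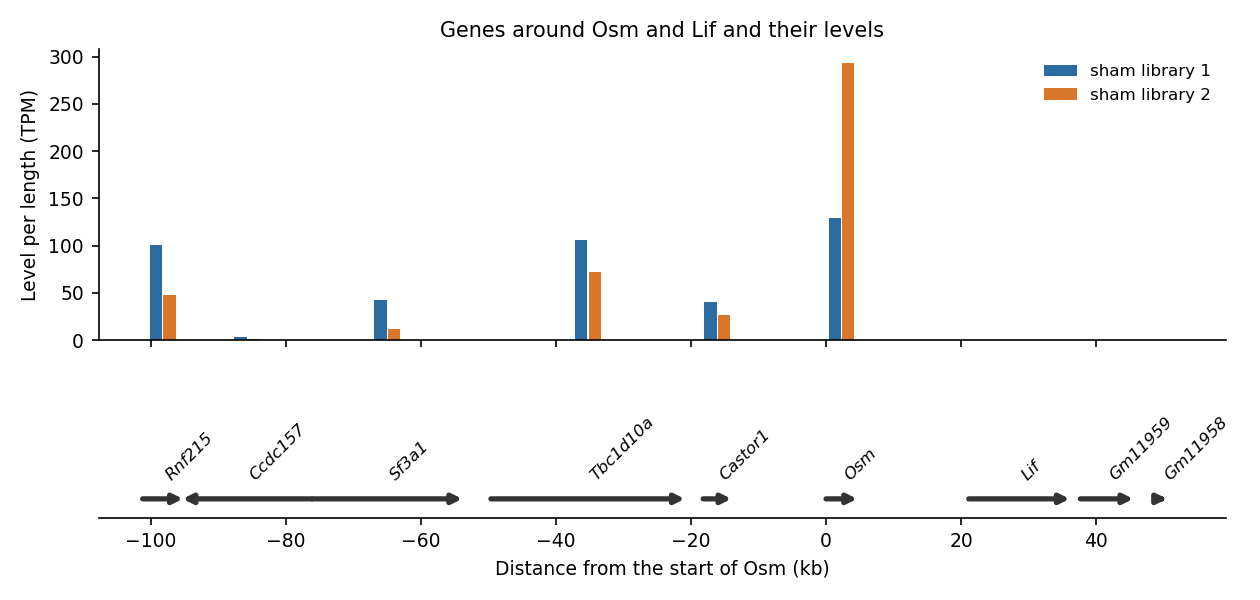
Levels per length (TPM, vertical axis) of the coding and long noncoding genes within 100 kb of Osm, in sham library 1 (blue bars) and sham library 2 (orange bars), above a map of the genes by distance from the start of Osm in kb, with arrows in the direction of transcription. Osm reached 129 and 293 TPM, while Lif, 16.5 kb downstream of its end, had 1 and 0 counts.

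Neutrophil markers and early-response genes are set beside Osm. The basophil or mast cell list, with 0.257 and 172 CPM, and the choroid plexus list, with 44.6 and 584 CPM, were also higher in library 2. All 10 immature neutrophil markers and 8 of the 9 mature neutrophil markers were over 2-fold higher in library 2. The exception was Csf3r, the receptor of granulocyte colony-stimulating factor, with 517 and 354 CPM. Of the 12 early-response genes, 2 were over 2-fold higher in library 2, 2 were over 2-fold lower and 8 were within 2-fold, where 5.74% of all genes counted were over 2-fold higher and 25.9% over 2-fold lower. The AP-1 gene Fos had 2786 and 5980 CPM, and Jun had 3760 and 3312 CPM. The part of RNA of any of these cells or of early-response transcription in the level of Osm was not tested.

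The relatives and receptors of Osm and Lif differed in level. Il6, the founding cytokine of the family, had 101 and 540 counts, or 4.32 and 13.1 CPM, so it was higher in library 2 like Osm. Per length, Osm was 25.6 times Il6 in library 1 and 23.7 times in library 2. Clcf1, which encodes cardiotrophin-like cytokine factor 1, was close in both libraries with 39.9 and 37.1 CPM. Il11 and Cntf had 0 counts in both libraries, and Ctf1 had 6 and 14 counts. Of the receptor chains, Il6st, which encodes gp130, had 299.8 and 56.8 CPM. Lifr, the receptor of leukemia inhibitory factor, had 141 and 57.2 CPM. Osmr, the chain that pairs with gp130 to bind oncostatin M, had 1 and 0 counts. Transcripts of Osm were thus abundant and those of Osmr at or under the limit of detection, while for Lif and Lifr the reverse was measured.

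Pdgfb was the most abundant of the PDGF and VEGF genes, which encode related dimeric growth factors of vessels and connective tissue cells. Pdgfb (chromosome 15, 79995874 to 80014977) had 2692 and 1383 counts, or 115 and 33.6 CPM, with a mean of 74.4 ± 57.6 CPM (SD, n = 2). Library 1 was 3.43-fold higher (3.21 to 3.66). Pdgfa (chromosome 5, 138976014 to 138997370) had 446 and 672 counts, or 19.1 and 16.3 CPM, with a mean of 17.7 ± 1.94 CPM (SD, n = 2). Pdgfa was the member that differed least between the libraries, with a log2 ratio of library 2 to library 1 of −0.22 (−0.40 to −0.05), and its sign turned to 0.0062 with TMM and 0.051 with DESeq2 scaling. Its exons share 813 of 3119 bases with the antisense gene 6330403L08Rik, which had 61 and 53 counts, and the strand setting of the counting is not given in the sources used here. Per length, Pdgfb was 4.52 times Pdgfa in library 1 and 1.54 times in library 2.

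The receptors of the PDGF genes were at the bottom of the range. Pdgfra, the receptor chain of oligodendrocyte precursors, had 0 counts in both libraries. Pdgfrb, the chain of pericytes, had 9 and 18 counts. Pdgfc and Pdgfd, the other ligands of the family, had 9 and 17 counts and 14 and 5 counts. Which of the sorted cells held the Pdgfa and Pdgfb transcripts was not tested.

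Vegfb exceeded Vegfa in both libraries, and both were lower in library 2. Vegfa, the main growth factor of blood vessels (chromosome 17, 46016993 to 46032369), had 70 and 34 counts, or 2.99 and 0.826 CPM, with a mean of 1.91 ± 1.53 CPM (SD, n = 2). Its log2 ratio was −1.86 (−2.49 to −1.25), the widest interval of the 8 counted members. Vegfb (chromosome 19, 6982473 to 6987651) had 507 and 159 counts, or 21.7 and 3.86 CPM, with a mean of 12.8 ± 12.6 CPM (SD, n = 2), and a log2 ratio of −2.49 (−2.75 to −2.23). Per length, Vegfb was 19.3 times Vegfa in library 1 and 12.5 times in library 2, so the order of the pair held in each mouse.

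Of the VEGF receptors, the co-receptor gene Nrp1 stood out with 252 and 102 CPM. Nrp2 had 49.1 and 12.3 CPM. The tyrosine kinase receptors Kdr and Flt1, which mark endothelial cells, had only 105 and 68 counts and 33 and 27 counts. Per length, Nrp1 was 51.8 and 57.2 times Kdr. The endothelial and mural cell list as a whole summed to 23.6 and 18.2 CPM. Within it Pecam1 gave 16.1 and 14.4 CPM, while Cldn5 had 1 count in each library. Vegfd had 0 counts in both libraries, Vegfc had 3 and 1 counts, and Pgf had 0 and 10 counts.

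**Figure D2:**
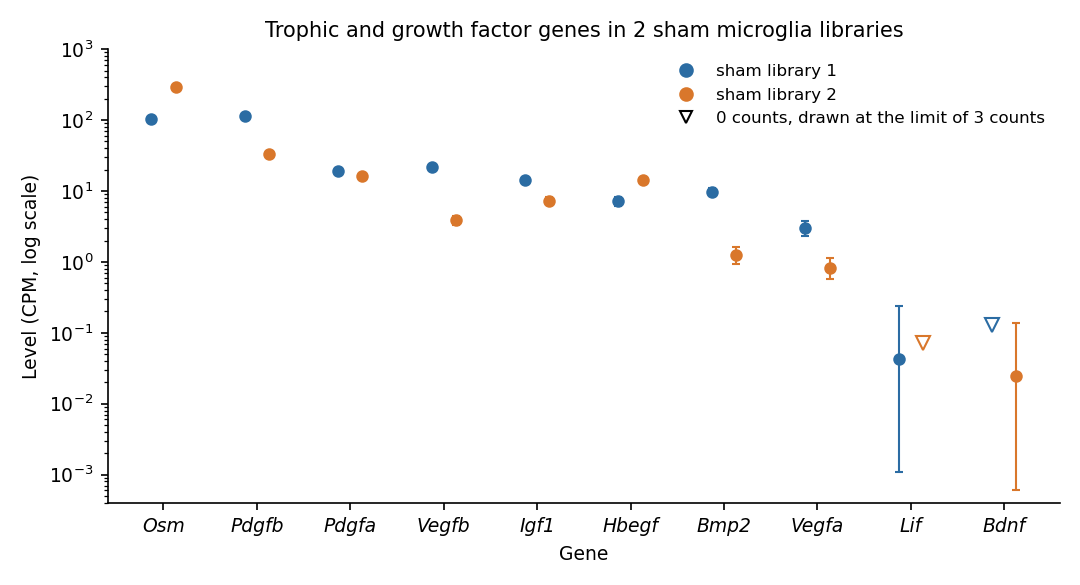
Level of each member (CPM, log scale) in sham library 1 (blue) and sham library 2 (orange), ordered by mean CPM, with 95% exact intervals for counting error. Osm and Hbegf were higher in library 2, the other 6 counted genes were higher in library 1 (Pdgfa turned with TMM and DESeq2 scaling), and open triangles mark libraries with 0 counts of Lif or Bdnf at the limit of 3 counts. CPM is not corrected for length, so heights are to be compared within a gene.

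Igf1, the growth factor that acts through the receptor kinase Igf1r on neurons and oligodendrocytes, was the seventh of the 10 members per length, with a mean TPM above that of 25.5% of the genes counted. Igf1 (chromosome 10, 87858265 to 87937042) had 335 and 299 counts, or 14.3 and 7.27 CPM, with a mean of 10.8 ± 4.99 CPM (SD, n = 2). Library 1 was 1.97-fold higher (1.68 to 2.31), just short of 2-fold. The antisense gene Igf1os shares no exon bases with Igf1 and had 2 and 0 counts. The longest transcript of Igf1 has 7052 bases and is among the longest of the genes counted, in the last of 10 bins of length, whose median log2 ratio was −1.05. After adjustment for GC content and length the log2 ratio of Igf1 fell in size from −0.98 to −0.43.

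Of the other listed genes of the IGF system, some on the receptor and the binding protein side were counted and others were not. Igf1r had 23.1 and 9.45 CPM, and the insulin receptor gene Insr had 78.2 and 80.3 CPM. Igfbp4, a binding protein that holds IGF1 away from its receptor, had 70.7 and 68.3 CPM. Igf2 and Igfbp3 had 0 counts in both libraries. Igf2r had 7 and 74 counts, Igfbp5 had 1 and 2, and Igfbp7 had 1 and 9. Igfbp6 had 194 and 108 counts, or 8.30 and 2.63 CPM. Igfbp2 had 15 and 404 counts, or 0.642 and 9.82 CPM, a log2 ratio of 3.94. Choroid plexus genes summed to 44.6 and 584 CPM, within which Ttr had 21.9 and 356 CPM and Kl had 1.11 and 1.53 CPM. The neutrophil and the basophil or mast cell lists were also higher in library 2. The part of RNA of any of these cells in the level of Igfbp2 was not tested.

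Hbegf, which encodes heparin-binding EGF-like growth factor, was the second member with a higher level in library 2. Hbegf (chromosome 18, 36504929 to 36515805) had 168 and 590 counts, or 7.19 and 14.3 CPM, with a mean of 10.8 ± 5.06 CPM (SD, n = 2). Library 2 was 1.996-fold higher (1.68 to 2.38). This value lies just under 2-fold, and it passed 2-fold with TMM and DESeq2 scaling. The growth factor is made as a membrane protein, is cut free by proteases such as ADAM17, and associates with the tetraspanin CD9. Cd9 had 705 and 1385 CPM, nearly the same ratio as Hbegf. Adam17 had 273 and 114 CPM, and Adam10 had 332 and 97.6 CPM.

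Among the EGF receptor ligands, Tgfa was the more abundant gene and went the other way from Hbegf. Tgfa had 3544 and 1180 counts, or 152 and 28.7 CPM, a log2 ratio of −2.40. Per length, Tgfa was 15.7 times Hbegf in library 1 and 1.49 times in library 2. Ereg and Btc had 0 counts in both libraries, Areg had 0 and 8 counts, Epgn had 8 and 3, and Egf had 42 and 24. The receptor genes had few counts, with 38 and 14 for Egfr and 0 and 3 for Erbb4.

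Bdnf, the ligand of the neuronal receptor TrkB, was not detectable at this depth. Bdnf (chromosome 2, 109674700 to 109727007) had 0 counts in library 1 and 1 count in library 2. The limit in library 1 was 0.128 CPM, and the single count of library 2 was 0.0243 CPM (0.000615 to 0.135). Of the 6217 bases of its exons, 896 are shared with the antisense gene Gm45346, which had 0 counts in both libraries. The neurotrophin genes Ntf3 and Ntf5 were also scarce, with 0 counts in both libraries for Ntf3 and 1 count in each for Ntf5. Ntrk2, which encodes TrkB, had 37 and 132 counts, and the receptor gene Ngfr had 0 counts in both libraries. Of the listed genes that process or sort growth factor precursors, Pcsk5 had 0 counts in both libraries and Sorcs2 had 3 and 10. Others were expressed. Sort1, which encodes the sorting receptor sortilin, had 86.3 and 44.6 CPM, Furin, a protease that cleaves growth factor precursors, had 35.4 and 8.51 CPM, and the related protease gene Pcsk7 had 38.45 and 21.2 CPM.

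Bmp2 was the member that differed most between the libraries. Bmp2, a bone morphogenetic protein (chromosome 2, 133552159 to 133562885), had 226 and 51 counts, or 9.67 and 1.24 CPM, with a mean of 5.45 ± 5.96 CPM (SD, n = 2). Library 1 was 7.80-fold higher (5.73 to 10.8). Of the genes counted in both libraries, 1.12% had a lower ratio. Bmp4 had 0 and 4 counts, Bmp6 had 0 and 6, and Bmp7 had 0 and 24. The counts of Bmp4 and Bmp6 are too few to show a difference at these depths.

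The BMP receptor genes were expressed in both libraries. The type I receptor genes Bmpr1a and Acvr1 had 12.5 and 8.68 CPM and 18.1 and 17.3 CPM, and Bmpr1b had 0 counts. The type II genes Bmpr2, Acvr2a and Acvr2b had 38.0 and 14.6 CPM, 20.8 and 7.22 CPM, and 7.83 and 7.46 CPM. Bambi, a decoy receptor, had 8.00 and 13.5 CPM. The secreted antagonists Nog, Grem1 and Chrd had 0 counts in both libraries.

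Levels of different members were then ordered per length. By mean TPM the order was Osm, Pdgfb, Vegfb, Pdgfa, Hbegf, Bmp2, Igf1, Vegfa, Lif and Bdnf. Osm had 211 ± 116 TPM (SD, n = 2), above 95.7% of the genes counted, and its range lay apart from that of Pdgfb, with 48.6 ± 42.6 TPM. The ranges of Pdgfb and Vegfb overlapped, as did those of Vegfb, with 22.0 ± 23.3 TPM, and Pdgfa, with 14.7 ± 3.81 TPM. Pdgfa lay apart from Hbegf, which had 4.23 and 6.80 TPM. Hbegf and Bmp2, Bmp2 and Igf1, and Igf1 and Vegfa overlapped with their neighbours. Vegfa, with 1.99 and 0.442 TPM, lay apart from Lif and Bdnf. Osm and Pdgfb held the first and second place in both libraries, and Vegfb fell from the third place in library 1 to the fifth in library 2. By counts, not corrected for length, Osm gave 35.2% of the 10 members in library 1 and 79.0% in library 2. Osm and Pdgfb together gave 74.4% and 88.1%. In library 1 Pdgfb had more counts than Osm, with 2692 against 2416.

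**Figure D3:**
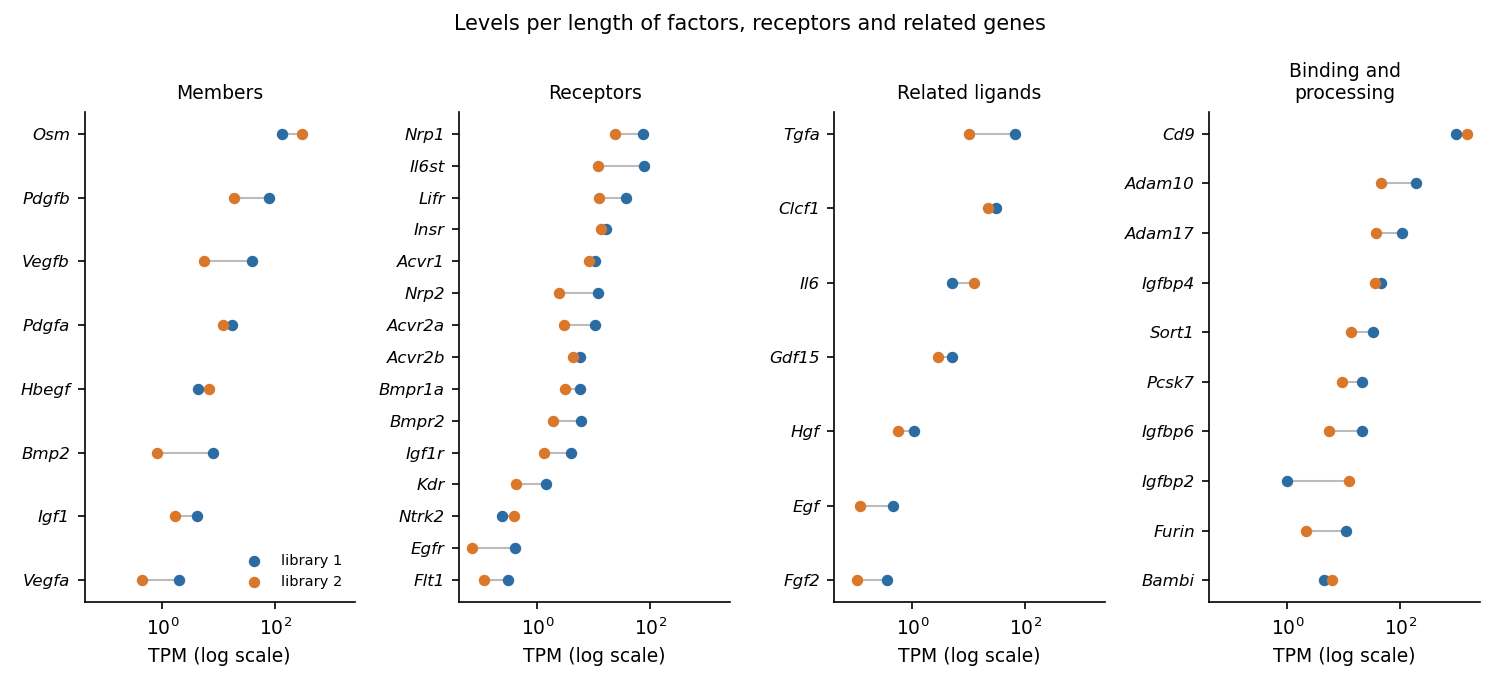
Levels per length (TPM, log scale) of the members, receptors, related ligands, and binding and processing genes that were counted, each panel ordered by mean TPM, with library 1 in blue and library 2 in orange. Osm, at 129 and 293 TPM, lies to the right of all receptors and related ligands shown, and most receptors have their blue point to the right of the orange one.

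Of the 8 members counted in both libraries, 5 differed by more than 2-fold, against 31.7% of all 13445 genes counted. In library 2, 4 were over 2-fold lower (Pdgfb, Vegfa, Vegfb and Bmp2), as were 25.9% of all genes. Osm alone was over 2-fold higher in library 2, as were 5.74% of all genes. Hbegf and Igf1 lay just under 2-fold, and Pdgfb and Osm were the nearest above it. The median log2 ratio of the 8 members was −1.38 and that of all genes counted −0.26. With 8 genes of 2 mice these counts describe the libraries and give no test.

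**Figure D4:**
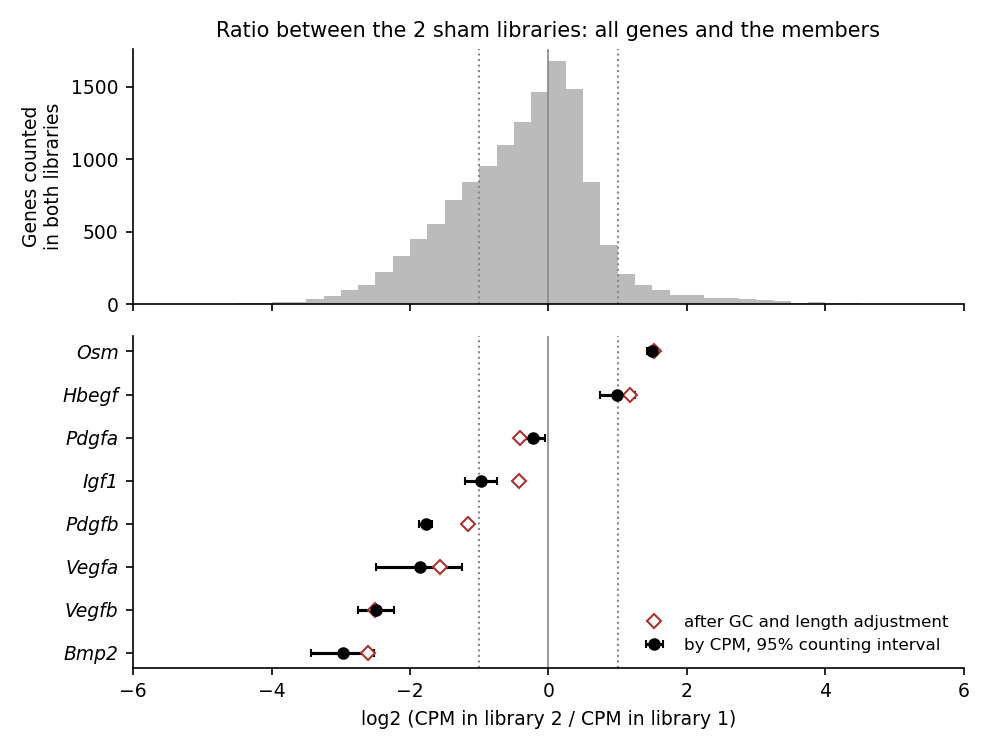
The upper panel counts all genes by log2 ratio of CPM in library 2 to library 1, and the lower panel gives this ratio for the 8 counted members with 95% intervals for counting error (black) and after adjustment for GC content and length (red diamonds). Dotted lines mark 2-fold. Osm lies to the right at 1.49, and Bmp2 and Vegfb lie farthest to the left at −2.96 and −2.49.

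Genes with long transcripts were lower in library 2 as a group, and this trend was set beside the members. The median log2 ratio was 0.17 in the third of 10 bins of transcript length (1657 to 2143 bases) and −1.05 in the bin of the longest transcripts. By GC content it ranged from −0.10 in the second of 10 bins to −0.64 in the bin of highest GC content, which holds Pdgfb and Vegfb. The median of the same bins of GC content and length was subtracted from each ratio, an adjustment chosen after seeing the data. It moved Pdgfa from −0.22 to −0.41, Pdgfb from −1.78 to −1.16 and Vegfa from −1.86 to −1.57. Vegfb, a short transcript of 1281 bases, stayed at −2.50, Bmp2 went from −2.96 to −2.61, Osm from 1.49 to 1.52 and Hbegf to 1.18. After the adjustment 4 members were over 2-fold lower and 2 over 2-fold higher, against 12.7% and 9.7% of all genes.

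**Figure D5:**
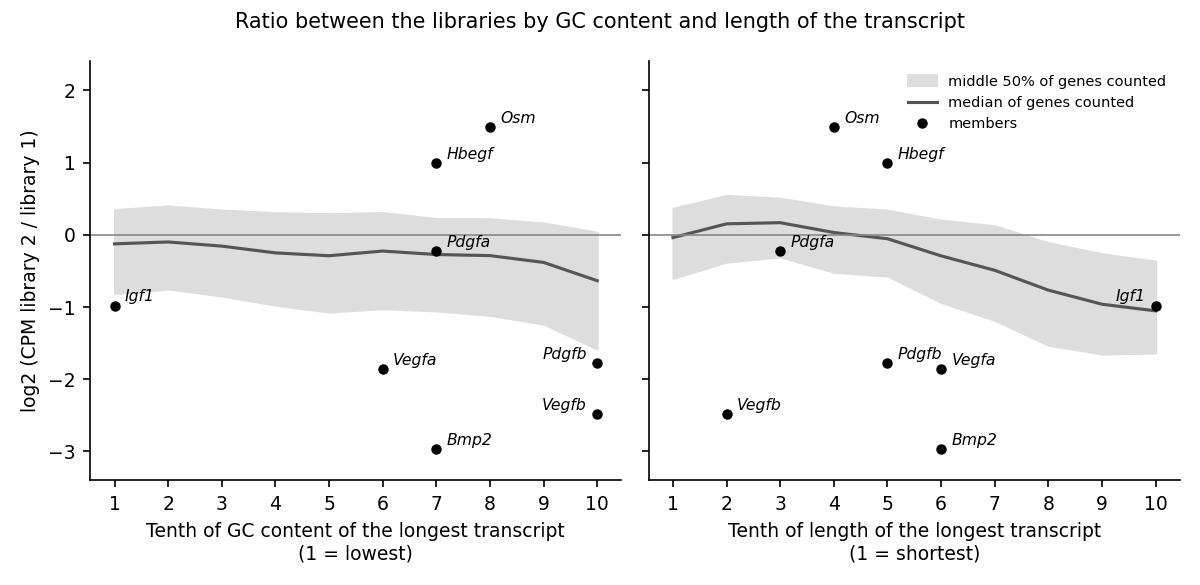
Log2 ratio of CPM in library 2 to library 1 by bin of GC content (left) and of length (right) of the longest transcript, with the median (line) and the middle 50% (grey band) of all genes counted and the 8 members as points. The median falls to −1.05 for the longest transcripts, where Igf1 lies. In both panels Pdgfb, Vegfa, Vegfb and Bmp2 lie below the grey band and Osm and Hbegf above it. Igf1 lies below the band in the left panel and within it in the right panel.

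Of all 53801 genes, 13445 were counted in both libraries. Of the 22 receptor genes, 15 were counted. Of these 15, 10 were over 2-fold lower in library 2, 1 was over 2-fold higher (Ntrk2) and 4 were within 2-fold. Of all genes counted, 25.9% were lower and 5.74% higher. The median log2 ratio of the 15 receptor genes was −1.30. After the GC and length adjustment 3 were lower and 2 higher, beside 12.7% and 9.7% of all genes, and the median was −0.36. Of the 30 related ligand genes, 7 were counted, with 3 lower and 1 higher (Il6). Of the 18 binding and processing genes, 10 were counted, with 4 lower and 1 higher (Igfbp2), where the shares of all genes are the same 25.9% and 5.74%. After the adjustment 1 related ligand was lower and 1 higher, and 2 binding and processing genes were lower and 3 higher. The 3 genes with levels most like those of Osm over the 2 libraries, by distance in log2 CPM, were Dhrs7 at 0.12, H2afz at 0.14 and Sri at 0.17, a likeness over 2 values only.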

How the data were processed

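Bulk RNA-seq was measured in 2 sham microglia libraries. cDNA was made with the SMART-Seq HT Kit and libraries by tagmentation. Per the submitters' processing notes, the authors used HISAT2, GRCm38 and HTSeq, and each deposited value is a raw count of reads on an Ensembl gene, not normalized. Versions, annotation release and strand setting are not given in the sources used here. The deposited gene starts count from 0 and are printed from 1.

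Symbols were matched for 53620 of 53801 identifiers. CPM was each count over all counts of the library, scaled to 1000000, and TPM used the union of exons in GENCODE M21 (GRCm38). A gene was called counted where each library had 10 counts or more. Ratios between the libraries have exact conditional binomial 95% intervals, and no p-value is given, since both libraries belong to 1 group. The intervals were checked on simulated counts with counting error alone. That check says nothing about PCR copies or the spread between mice. The design text of the series gives each sample as 1 mouse brain. The longest transcript of a gene gave its GC content and length, in 10 bins each, with the GC bin alone where fewer than 20 genes shared both. TMM of edgeR 4.0.16 and size factors of DESeq2 1.42.0 were alternative scalings (R 4.3.3, Python 3.11.15, numpy 2.4.6, pandas 2.3.3, scipy 1.17.1, matplotlib 3.10.9).

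Members and lists were chosen with earlier results of these data known. All members are named. Of the other lists, genes of at least 10 CPM on average or past 4-fold are named, up to 8 a list, with the receptors of the members. Il6, Igfbp2, Igfbp3, Igfbp6, the genes at few or 0 counts and the single marker genes were named after their values were seen. Protein features were not analysed here.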

Additional observations from a re-analysis of the deposited data

How the results depend on the processing

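No paired analysis was possible because both libraries belong to 1 group. The mean CPM of each of the 10 members stayed within 1 SD of the 2 libraries with TMM or DESeq2 scaling and when mitochondrial or neutrophil marker genes were left out of the totals, and the mean TPM did so with the longest transcript. A mean of 2 libraries cannot move by more than 1 SD when either is left out, so that step says nothing about stability. The number of counted members was 8 with minimums of 1, 5, 10 and 30 counts and with either library left out, and 7 with a minimum of 1 CPM. The sign of the ratio between the libraries turned only for Pdgfa, from −0.22 to 0.0062 with TMM and 0.051 with DESeq2. Hbegf passed 2-fold with TMM, DESeq2, totals without neutrophil marker genes and the GC and length adjustment. Members over 2-fold higher in library 2 then numbered 2 in place of 1. The share of all genes over 2-fold higher also rose, from 5.74% by CPM to 8.3% with TMM and 9.3% with DESeq2. It was 6.5% with totals without neutrophil marker genes and 9.7% after the adjustment. Over all genes, those over 2-fold higher numbered 772, and 1248 with DESeq2, 500 with a minimum of 30 counts, 1945 with at least 1 count and 1303 after the adjustment. Those over 2-fold lower numbered 3485, and 5357 with at least 1 count and 1705 after the adjustment. Those past 2-fold in either direction numbered 4257, and 7302 with at least 1 count. The median log2 ratio of all genes was −0.26 by CPM, −0.03 with TMM and 0.01 with DESeq2, and higher genes made up 18.1%, 29.3% and 32.8% of those past 2-fold. The adjustment, and its use and that of totals without neutrophil marker genes for counts past 2-fold, were chosen after seeing the data. The low counts of Vegfa, Lif and Bdnf limit what depth can show.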

Other observations

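Further growth factor genes were measured in the same libraries. Hgf, which encodes hepatocyte growth factor, had 64 and 72 counts in libraries 1 and 2, or 2.74 and 1.75 CPM. Gdf15, a stress-induced member of the TGF-β superfamily, had 76 and 93 counts, or 3.25 and 2.26 CPM. Fgf2 had 20 and 13 counts, or 0.855 and 0.316 CPM. Nrg1, a ligand of ERBB receptors, had 9 and 29 counts. Gdnf had 0 counts in both libraries. The heparin-binding factors Ptn and Mdk had more counts in library 2, with 2 and 85 for Ptn and 4 and 25 for Mdk.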
